A study of Drosophila melanogaster with 2 samples.

Results

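Peaks of the zinc-finger protein Oaz that lay inside the introns of long genes numbered 489 of the 2772 peaks on the chromosome arms (17.6%, Wilson 95% interval 16.3 to 19.1). A peak was counted here when its summit lay more than 500 bp from every protein-coding transcription start site (TSS), inside a protein-coding gene and in no exon of one, and when the longest gene around it spanned 30 kb or more. The peaks came from chromatin immunoprecipitation with sequencing. The source was whole embryos of Drosophila melanogaster, 0 to 24 hours old, from a strain with an insertion aimed at Oaz that makes an Oaz-eGFP fusion. An anti-GFP antibody pulled the protein down, although 1 field of the labels names Oaz as the antibody target. The 2 samples were biological replicates of a single condition, and comparisons are therefore between kinds of peaks. Embryos of many stages and all tissues were pooled, and the labels state neither the promoter of the fusion nor its copy number.

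Long fly genes owe most of their length to introns, and such introns often carry enhancers, the stretches of DNA that transcription factors bind to switch a gene on in given cells. Genes for developmental regulators and for nerve cell proteins are well represented among them. Oaz is a protein with many C2H2 zinc fingers, related to the vertebrate proteins ZNF423 and ZNF521, and it is known in the fly embryo for its part in forming the posterior spiracles.

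The sequence that marked these peaks most clearly was the 6-mer ACAGTG. The stretches below are shown because they belong to the strongest peaks found in both replicate lists and show where ACAGTG sat. The first gives the bases up to 100 bp to either side of the summit of the strongest peak, in Tlk, which held no copy of ACAGTG on either strand. The others give 61 bases around the copy nearest the summit in the 7 strongest such peaks that held a copy and whose sequence is shown. They are read 5′ to 3′ along ACAGTG, which stands in capitals, from the Release 6 genome (dm6).
Tlk intron, chrX:3742125-3742325, plus strand: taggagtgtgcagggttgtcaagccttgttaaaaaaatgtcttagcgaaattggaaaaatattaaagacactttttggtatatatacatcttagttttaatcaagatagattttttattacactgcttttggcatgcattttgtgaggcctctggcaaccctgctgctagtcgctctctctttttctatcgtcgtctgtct
NFAT intron, chrX:13640408-13640468, plus strand: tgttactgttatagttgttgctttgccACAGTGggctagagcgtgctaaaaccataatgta
norpA intron, chrX:4325038-4325098, minus strand: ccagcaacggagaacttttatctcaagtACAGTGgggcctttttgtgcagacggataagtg
Raf intron, chrX:2297769-2297829, minus strand: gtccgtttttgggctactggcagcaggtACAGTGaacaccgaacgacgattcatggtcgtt
for intron, chr2L:3655697-3655757, plus strand: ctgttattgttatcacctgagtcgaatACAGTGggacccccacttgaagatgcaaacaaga
sick intron, chr2L:19865684-19865744, minus strand: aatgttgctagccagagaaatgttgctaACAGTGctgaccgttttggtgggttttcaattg
prage intron, chrX:1830642-1830702, plus strand: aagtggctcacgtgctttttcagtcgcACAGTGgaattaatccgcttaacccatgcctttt
Eip63E intron, chr3L:3518118-3518178, minus strand: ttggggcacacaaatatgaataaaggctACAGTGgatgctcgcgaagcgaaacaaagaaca

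The centre of the copy shown lay 70.5 bp from the summit in NFAT, 80.5 bp in norpA, 71.5 bp in Raf, 66.5 bp in for, 58.5 bp in sick, 82.5 bp in prage and 39.5 bp in Eip63E. None of the 7 copies lay on the summit itself. Every one of the 4 minus-strand copies lay to the right of its summit and every one of the 3 plus-strand copies to the left, so that each read toward the summit.

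ACAGTG was found on either strand in 126 of the 489 windows that reached 100 bp to either side of a summit (25.8%, Wilson 95% interval 22.1 to 29.8). Windows of the same width centred 700 bp to the left held it in 7.16% and those to the right in 9.41%. Of 174015 windows of this width tiled over the long-gene introns, 7.35% held it. The excess over the left flank was 3.53-fold by the number of windows, with 1 added to both (two-sided exact McNemar test, Benjamini-Hochberg adjusted p = 1.27e-12 over all 6-mers), and it was the highest fold of all 6-mers tested. In windows that reached only 50 bp to either side the share was 9.82% against 4.29%, and the adjusted exact p of 0.0712 missed the threshold of 0.05. ACAGTG had already led by fold over all peaks of this series, and the peaks here are a subset of those, so its place here is no independent evidence.

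The copies were densest beside the summits and not on them. Within 25 bp of a summit there were 19 copies over all 489 peaks, from 25 to 50 bp 33, from 50 to 75 bp 48, and from 75 to 100 bp 54. Per 50 bp of sequence, these 4 bands held 19, 33, 48 and 54 copies. From 100 to 150 bp the density was 33.5 copies per 50 bp, from 150 to 200 bp it was 17, and from 500 to 1000 bp it was 11.2. The density of copies thus peaked from 75 to 100 bp away and was close to that of distant sequence beyond 200 bp, where it was 10.3 per 50 bp up to 500 bp.

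Most copies near a summit had the same direction relative to it. Of the 154 copies within 100 bp, 123 read 5′ to 3′ toward the summit (79.9%, 72.8 to 85.4). From 100 to 200 bp 77 copies did so (76.2%, 67.1 to 83.5), and from 200 to 1000 bp it was 175 of 346 (50.6%, 45.3 to 55.8). By strand the copies within 100 bp divided about evenly, with 75 on the plus strand and 79 on the minus strand. They came from 126 peaks, of which 26 held 2 or more, whereas the intervals take copies as independent. The direction was examined after the positions had been seen, and it was not tested. With the peaks and summits of replicate 1 alone the share within 100 bp was 84 of 100 copies (84%), and with those of replicate 2 alone it was 71 of 86 (82.6%). At an irreproducible discovery rate (IDR) of 0.001 or less it was 58 of 66 (87.9%). The IDR, given by the authors for each peak, is low where a peak ranks alike in repeated measurements, and all listed peaks had 0.01 or less.

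**Figure D1:**
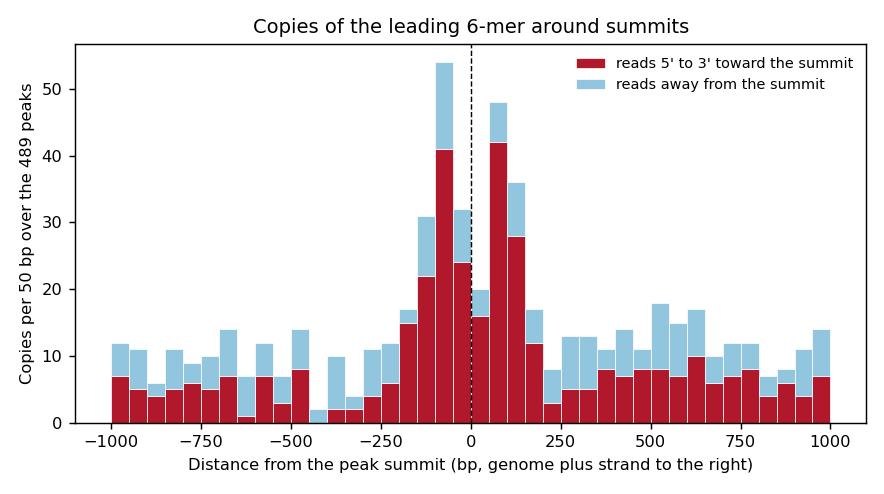
Copies of the leading 6-mer (y axis, copies per 50 bp over the 489 peaks) by distance from the summit (x axis, bp, plus strand of the genome to the right), with copies that read toward the summit in red and away from it in blue. The bars from 50 to 100 bp on either side stand highest, with 54 copies on the left and 48 on the right, and the red part is the larger one out to 200 bp.

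The same direction prevailed in the other kinds of peaks. Within 100 bp, copies that read toward the summit made up 73.3% of 176 in introns of shorter genes, 73.7% of 99 between genes and 69.3% of 290 at promoters. The median distance of these copies was 65.5 bp in long-gene introns, 62 bp in shorter introns, 65.5 bp between genes and 62.5 bp at promoters. The differences between kinds of peaks in direction were not tested. By share of windows, ACAGTG was in 26.6% of peaks in shorter introns, 19.6% of those between genes and 20.2% of promoter peaks, and no difference from the 25.8% passed (two-sided Fisher's exact test, adjusted p = 1, 0.731 and 0.24 over all 6-mers).

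Bases next to ACAGTG were also uneven. Over the 154 copies within 100 bp, read along ACAGTG, the base right after it was G in 51.9%, and the next was A in 44.8%. The base right before it was C in 42.9% and T in 38.3%, and the one before that was G in 50.6%. The copies of NFAT, for, prage, norpA and Eip63E shown above are each followed by G, whereas that of Raf is followed by A and that of sick by C.

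The share of peaks with ACAGTG was higher in groups of higher signal. The share of windows with a copy was 17.1% (21 of 123) in the lowest of 4 groups of peaks by signal, 21.3% and 31.1% in the next, and 33.6% (41 of 122, 25.8 to 42.4) in the highest. Peaks with a copy had a median signal of 102, and those without had 86.5. Of the 20 strongest peaks found in both replicate lists, 13 held a copy within 100 bp (65%), and in these the nearest copy lay 39.5 to 86.5 bp from the summit. The 7 without one were those of Tlk, mub, brat and Dys, both peaks of osa and 1 of the pair in Raf. No test was made of these shares, since signal and sequence are taken from the same peaks.

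Over all 6-mers, 32 (1.54%) were higher at summits than in the left flank and 3 (0.144%) were lower (two-sided exact McNemar tests, Benjamini-Hochberg adjusted p under 0.05). Of the 32, 8 were ACAGTG or close to it, with 3 that share 5 bases in a row with it and 4 that differ from it by 1 base. A further 10 were made only of A and T, of the 36 such 6-mers, and 14 were neither. The 6-mers that followed by p were ACTGTA (17.8% of summit windows against 5.52% of left flanks), AGTGTA (21.3% against 9.0%), ACACTG (18% against 7.77%), CACTGA (20.2% against 9.61%) and CAGTGC (18% against 8.38%). Lower at summits were CAGCAA, with a fold of 0.538, GCAGCA, with a fold of 0.589, and CAAAAG, with a fold of 0.649. Against the right flank the count was 64, 21 of them among the 35. The count fell to 23 with the shorter list of replicate 1 alone and to 6 with that of replicate 2 alone, and ACAGTG was called with both (3.73-fold and 4.18-fold). No 6-mer was called lower with either replicate's own list or with only the strongest peak of each gene. Peaks of the same gene can share sequence, and the tests treat all 489 as independent.

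Summits were richer in A and T than their surroundings. The median share of G and C was 35.8% in summit windows and 39.8% in each flank, and the tiled intron windows had 40.3%. The summit was lower than its left flank at 313 peaks and higher at 168.

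Among 35 motifs of known factors and core promoter elements, searched on both strands, 2 (5.71%) were higher at summits than in the left flank and 1 (2.86%) was lower. ACAGTG was itself one of the 2. The other was TATAAA, the letters of the TATA box, with 36.4% against 23.9% of windows (1.52-fold, adjusted exact McNemar p = 5.15e-04), and 23.6% of tiled windows. TATAAA is also one of the A and T 6-mers above. TTTATGG, an Abdominal-B type homeodomain site, was lower with 3.07% against 7.77% (0.410-fold, adjusted exact McNemar p = 0.0127), and tiled windows had 6.25%. GCACCC, a site known for the vertebrate relative ZNF423, was in 3.48% of summit windows and 5.32% of left flanks (adjusted exact McNemar p = 0.7), with 4.56% of tiled windows. Neither the call of TATAAA nor that of TTTATGG held among the 173 peaks with an IDR of 0.001 or less, where 1 of the 35 motifs was called. No motif was called lower in either replicate's own list or with windows of 50 bp to either side, so the call of TTTATGG ended there too. A match of letters is a description and not a binding site.

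Against other kinds of peaks, the sequence at summits differed from that of promoters but not detectably from that of other introns. No 6-mer was higher (0%) or lower (0%) in long-gene introns than in introns of shorter genes, nor higher (0%) or lower (0%) than between genes (two-sided Fisher's exact tests, adjusted p under 0.05). An unadjusted p under 0.05 was reached by 105 and 128 6-mers in these comparisons. Against promoter peaks 23 6-mers (1.11%) were higher and 18 (0.865%) lower. Lowest were CGATAG, with 1.84% against 15% of promoter peaks, and TATCGA, with 5.32% against 18.9% (adjusted Fisher's exact p = 2.98e-15 and 2.47e-11). TATCGA is part of the DRE, a core promoter element bound by DREF at genes that most cells use, and CGATAG holds the letters CGATA searched for the insulator protein BEAF-32. Higher in long-gene introns were GTGCAC, with 12.3% against 5.4%, and CACTGA, with 20.2% against 11.7%. These 41 calls were 14 with the list of replicate 1 alone, 7 higher and 7 lower, and 3 with that of replicate 2 alone, all lower, so that no 6-mer was called higher there.

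Long-gene introns held fewer peaks for their length than the introns of shorter genes. The sequence that met the rule came to 36.1 Mb, and the 489 peaks in it gave 13.5 peaks per Mb (exact Poisson 95% interval 12.4 to 14.8). The introns of shorter genes had 526 peaks in 17.5 Mb, or 30.1 per Mb (27.6 to 32.8), and sequence between genes had 450 peaks, or 10.5 per Mb (9.57 to 11.5). Promoters, with 1223 peaks, had 79.6 per Mb. These intervals cover counting error over peaks only and take peaks as independent, whereas 41 of the 489 overlapped another listed peak. The depth behind each peak is unknown, as reads were not analysed here.

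The gap between long and shorter genes was not the same at every distance from start sites. From 500 to 1000 bp of a TSS the density was 40.7 per Mb in long-gene introns (30.2 to 53.7), 54.8 in shorter ones (46.4 to 64.3) and 28.5 between genes. From 2 to 5 kb the 3 densities were 19.0, 20.9 and 13.6 per Mb, and from 10 to 20 kb they were 11.0, 9.96 and 8.93. Between those bands, from 5 to 10 kb, long-gene introns had 15 per Mb (12.3 to 18.1) and shorter ones 23.0 (18.3 to 28.5). Beyond 20 kb, long-gene introns still held 62 peaks, at 5.45 per Mb (4.18 to 6.98), where sequence between genes held 36 at 2.72 per Mb (1.90 to 3.76).

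**Figure D2:**
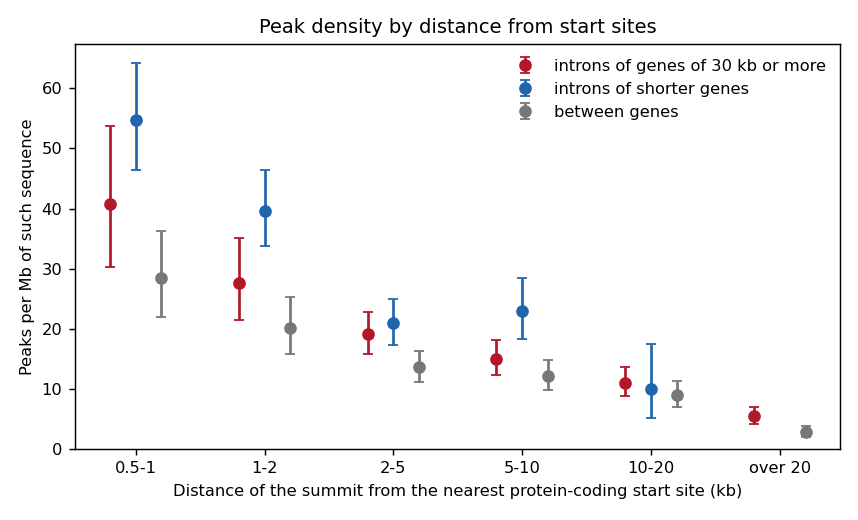
Peaks per Mb (y axis) by distance of the summit from the nearest protein-coding TSS (x axis, kb) in introns of long genes, introns of shorter genes and between genes, with exact Poisson 95% intervals. All 3 kinds fall with distance, from 40.7 to 5.45 per Mb in long-gene introns, and shorter genes have no peak beyond 20 kb, where they have almost no such sequence, and no point there.

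The longest genes had the fewest peaks for their intron length. Genes spanning 30 to 40 kb had 19.6 peaks per Mb of intron (15.9 to 24.0), those of 40 to 60 kb had 18.6, those of 60 to 100 kb had 16.7 and those of 100 to 200 kb had 9.02 (7.05 to 11.4). The 13 genes of 200 kb or more had 13 peaks, at 2.23 per Mb (1.19 to 3.82), and 4 of the 13 genes held them. The gene kirre alone held 10 of these 13 peaks. Median signals in these 5 bands differed little, at 90.5, 92.6, 92.9, 88.8 and 86.3.

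By chromosome arm, X had 121 of these peaks, 2R 93, 3L 92, 3R 92 and 2L 91. Per Mb of long-gene intron, X had 18.1 (15 to 21.7), 2L 16.8, 2R 15.1, 3L 12.9 and 3R 9.55 (7.70 to 11.7). Chromosomes 4 and Y had none, in 0.183 and 0.945 Mb of such sequence.

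Within their genes the peaks favoured early introns. In the longest transcript of the host, 141 peaks lay in intron 1 (28.8%, 25 to 33), which made up 21.6% of the sequence that met the rule. Intron 2 held 198 (40.5%, 36.2 to 44.9) against 27.7% of the sequence, intron 3 held 56 (11.5%) against 13.9%, and later introns held 94 (19.2%, 16 to 23) against 36.5%. Counting the first intron of any transcript, 51.3% of peaks lay in one, against 35.9% of the sequence. The median peak lay 22757 bp from the 5′ end of its host, in an intron of 25221 bp, and 39.6% of the way along the gene. These positions were not tested against placement.

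For 335 of the 489 peaks (68.5%, 64.3 to 72.5) the nearest protein-coding TSS was one of the host gene itself. Their median signal was 94.8, against 82.4 for the 154 that lay nearer to the TSS of another gene. Examples of the latter are 4 peaks in ed nearest to Sr-CIII, a scavenger receptor gene, with the strongest at a signal of 224, and 4 in sbb nearest to Tango8. Such a gene gives a peak a name, and regulation of it was not measured.

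Signals, the authors' own values on a scale that is not stated, were lower in these peaks than at promoters. Their median was 90.9, with quartiles of 71.1 and 130 and a maximum of 717. Peaks of shorter introns had a median of 101.4, those between genes 87.8 and promoter peaks 121. The signal exceeded the median of all arm peaks, 103, at 198 of the 489 (40.5%), against 48.7% in shorter introns (two-sided Fisher's exact test, adjusted p = 0.0173), 37.8% between genes (adjusted Fisher's exact p = 0.543) and 60.4% at promoters (adjusted Fisher's exact p = 4.09e-13). An IDR of 0.001 or less was reached by 173 (35.4%), against 45.2% in shorter introns (adjusted Fisher's exact p = 0.00314), 34.4% between genes (adjusted Fisher's exact p = 0.882) and 56.7% at promoters (adjusted Fisher's exact p = 1.01e-14). The difference in signal from shorter introns ended with the conservative list (adjusted Fisher's exact p = 0.138) and in replicate 2 alone (adjusted Fisher's exact p = 0.586). Both differences from shorter introns ended when only the strongest peak of each gene was kept (adjusted Fisher's exact p = 0.423 for signal and 0.337 for IDR).

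In the 2 replicates, 182 of the 489 peaks (37.2%, 33 to 41.6) overlapped a peak in both replicate lists. A further 88 were in the list of replicate 1 only, 43 in that of replicate 2 only and 176 in neither. The share in both lists was 43.3% in shorter introns (adjusted Fisher's exact p = 0.0713), 36.9% between genes (0.946) and 54.4% at promoters (4.94e-10), and the first 2 of these comparisons missed the threshold. The 9 comparisons of signal, IDR and replicate lists were adjusted together. Over the 182 peaks the median signal was 84.4 in replicate 1 and 64.1 in replicate 2, replicate 1 was higher at 150, and the median log2 ratio was 0.33 (SD 0.37 across peaks). Across these peaks, which are not independent and share both libraries, Spearman's rank correlation was 0.694.

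**Figure D3:**
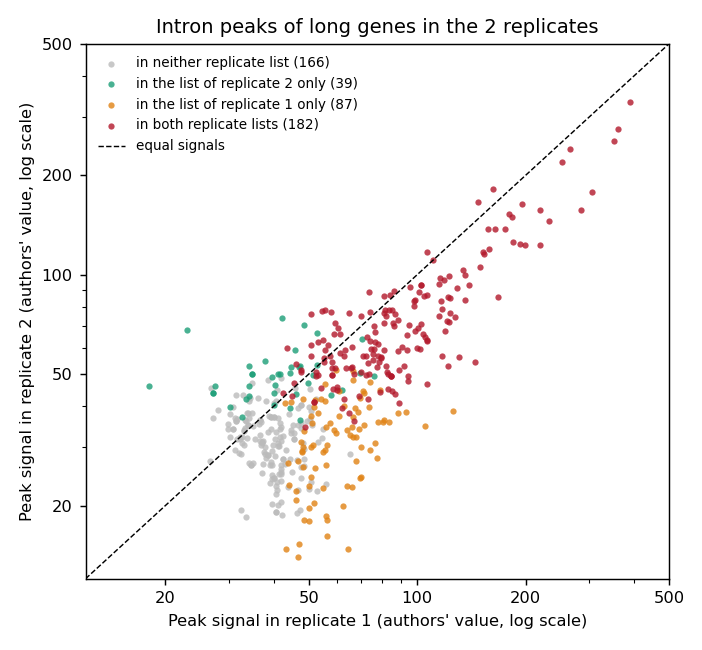
Signal of each intron peak in replicate 1 (x axis) and replicate 2 (y axis), both as the authors' values on log scales, for the 474 peaks with a value in both; colours give the replicate lists that hold the peak and the dashed line marks equal signals. The 182 peaks of both lists reach the highest signals, and 150 of them lie below the line, higher in replicate 1.

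Kinases, nuclear receptors and a chromatin remodeller were among the hosts of the 20 strongest peaks found in both replicate lists. The strongest, in intron 2 of Tlk (chrX:3742104-3742334), had a signal of 717 in the optimal list, 389 in replicate 1 and 333 in replicate 2. Tlk encodes Tousled-like kinase, which acts on chromatin assembly. The peak in NFAT (chrX:13640396-13640636), a transcription factor gene, had 628, with 361 and 277 in replicates 1 and 2. That in norpA (chrX:4324872-4325095), the phospholipase C of phototransduction, had 607, with 351 and 254. These 3 peaks were the highest in both replicates too, all of them on X.

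The nuclear receptor gene Hr3 had a peak of 512 at chr2R:10219967-10220191, with 266 in replicate 1 and 241 in replicate 2. Its summit also lay inside the shorter genes CG12912 and CG46321. Hr4, of the same protein family, had one of 299 at chrX:1963865-1964013, with 165 and 138. EcR, which encodes the ecdysone receptor, had one of 203, with 124 and 84.8.

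Both strong peaks of osa, a subunit gene of the Brahma chromatin-remodelling complex, lay in the same intron. They had signals of 471 and 448, with 253 and 286 in replicate 1 and 220 and 157 in replicate 2. The order of the pair was turned between the replicates. Raf, the kinase between Ras and MEK, had a pair of nearly equal peaks of 371 and 370, at chrX:2297626-2297826 and chrX:2300615-2300791, with 220 and 233 in replicate 1 and 158 and 145 in replicate 2. KCNQ, a potassium channel gene, had a peak of 487, whose nearest TSS, 753 bp away, was that of mlt.

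The other named peaks had signals from 296 to 352. Their hosts were for, a cGMP-dependent protein kinase, sick, which acts on actin in growing axons, mub, a KH-domain RNA-binding protein, and brat, a translational repressor that limits neural stem cells. They also included prage, a ribonuclease gene, Eip63E, a cyclin-dependent kinase, Dys, the fly dystrophin, MYPT-75D, a myosin phosphatase subunit, CG32264 and CG33158. The CG33158 peak, of 314, also lay inside aos, 3098 bp from a TSS of that gene, which encodes the EGF receptor inhibitor Argos. In 18 of the 20 peaks the signal was higher in replicate 1, and in those of sick (162 and 182) and CG33158 (148 and 166) it was higher in replicate 2.

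**Figure D4:**
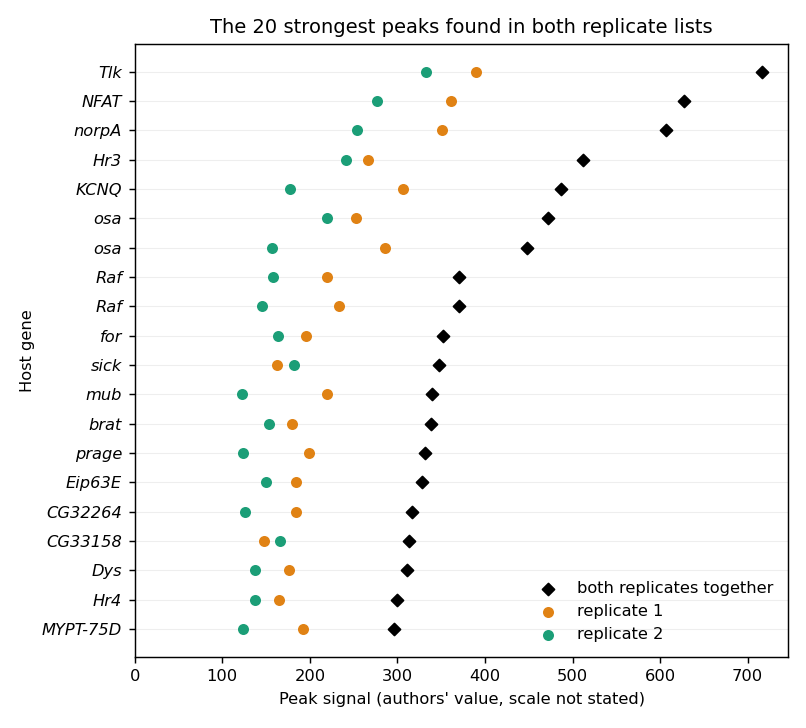
Signal (x axis, authors' value) of the 20 strongest intron peaks of long genes found in both replicate lists, by host gene, from both replicates together (diamonds), replicate 1 and replicate 2 (circles). The peaks run from 717 in Tlk to 296 in MYPT-75D, and the diamonds have a scale of their own.

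Of the 670 protein-coding genes that span 30 kb or more, 258 held at least 1 of these peaks (38.5%). A single peak was held by 139 genes, 2 by 65, 3 by 27, 4 by 16 and more by the other 11. Neighbouring peaks of 1 host lay a median of 6933 bp apart, and 118 peaks (24.1%) had another within 2000 bp.

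Among listed peaks, sbb (scribbler), which encodes a nuclear co-repressor, had 11 over 49.0 kb. Peaks that overlap each other are counted apart here, and with such peaks counted once sbb had 9, fewer than the 10 of CG1677. Of the 11 listed in sbb, 7 were in both replicate lists, among them an overlapping pair (135 and 11.4) that shares its replicate values. The strongest in sbb had 262, with 153 in replicate 1 and 116 in replicate 2. In CG1677 each of the 10 lay nearest to the TSS of another gene, among them brk, a repressor of Dpp targets, and Dok, a docking protein. The strongest of the 10 had a signal of 215, with 115.1 and 93.8 in the replicates, and its summit also lay inside Dok. In kirre, an adhesion protein gene for myoblast fusion that spans 394149 bp, 10 peaks spread over 310 kb, and 3 were in both lists. Some of the 10 lay close together, as at chrX:2786699-2786848 and chrX:2787296-2787625. The summits of this pair, the strongest in kirre, also lay inside the shorter gene CG32795, which had the nearest TSS.

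Raf had 7 peaks, 5 of them within 9 kb of its 5′ end, and Tlk 6, all in both replicate lists. CG32264 had 6 as well. The remaining hosts among the top 10 had 5 each: Hr4, the Smad-binding co-repressor gene Snoo, the zinc-finger gene shn, whose product represses brk, and apt, a transcription factor gene. The gene ftz-f1 also had 5 and was left out of the 10 because ties were settled by summed signal. In Snoo all 5 were in both lists, with signals from 103 to 191. Some counts include overlapping pairs in which 1 peak is listed with a very low signal beside a stronger one, as in sbb with 3.06 beside 90.2, and such a pair takes its replicate values from the same replicate peaks.

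**Figure D5:**
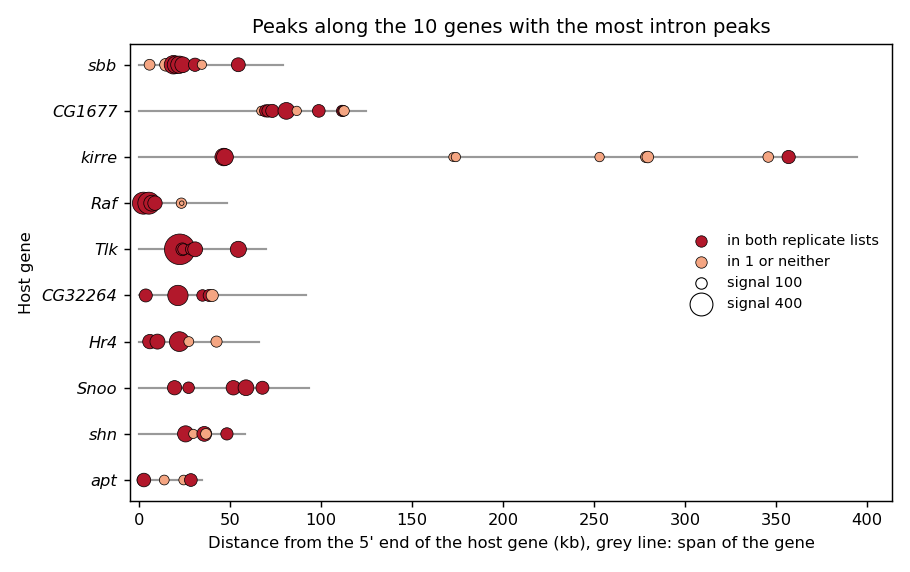
Positions of peaks (circles, area in proportion to signal) along the 10 genes with the most intron peaks, as distance from the 5′ end of the gene in kb (x axis); the grey lines give the gene spans. Peaks of sbb, CG1677 and Raf crowd into part of the gene and those of kirre spread over 310 kb, and dark circles, such as all 6 of Tlk, are in both replicate lists.

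Genes of signalling pathways had the highest share of hosts among 6 lists of genes. Of the 30 signalling genes that span 30 kb or more, 23 held a peak (76.7%, 59.1 to 88.2), against 38.5% of all genes of that length and 36.1% of the 427 in no list. Per Mb of intron they had 36.3 peaks, where all long genes had 13.5. Among their strongest were peaks in ths, an FGF ligand (205), EcR (203) and dpp, a BMP ligand (198, with 106 and 86.7 in the replicates). With the list of replicate 2 alone 14 of the 30 held a peak (46.7%), where all long genes had 22.4%.

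Developmental transcription factors held a peak in 26 of 52 long genes (50%, 36.9 to 63.1), at 25.8 peaks per Mb of intron. After Hr3, their strongest peaks were in mam, a co-activator of Notch signalling (268), sbb (262) and Pdp1, a bZIP factor of the circadian clock (204). RNA-binding proteins had 12 of 21 (57.1%, 36.5 to 75.5), but at 8.78 peaks per Mb of intron, below the 13.5 of all long genes. After mub and brat, these included the splicing regulators ps (221) and mbl (215). Genes of the cytoskeleton, junctions and muscle had 14 of 28 (50%, 32.6 to 67.4), at 9.31 peaks per Mb, also below 13.5. They were led by the nuclear anchor Msp300 (185), the myosin Myo10A (180), the formin capu (134) and the scaffold gene dlg1 (129). For transcription factors, RNA-binding proteins and the cytoskeleton alike, the interval holds the 38.5% of all long genes.

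Axon guidance and cell adhesion genes had 24 of 77 (31.2%, 21.9 to 42.2), an interval that holds the share of all long genes, at 11.0 peaks per Mb. They were led by beat-Ib (286) and kirre (236), both of the immunoglobulin superfamily, the adhesion protein gene ed (224) and the receptor phosphatase Ptp10D (198). Ion channel and neurotransmitter receptor genes had 5 of 35 (14.3%, 6.26 to 29.4), at 4.64 peaks per Mb. These were led by KCNQ (487), dnc (121), and the calcium channel subunits Ca-beta (87.8) and Ca-alpha1T (86.5). The list counts dnc among the 5, although it encodes a cAMP phosphodiesterase and neither a channel nor a receptor. The lists were not tested, and a longer intron offers more room for a peak.

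The limits of the rule left close neighbours outside. The gene of Oaz itself, listed as L, spans 29983 bp, just under 30 kb, so its 8 intron peaks, the strongest at 195, were counted with shorter genes. Just above the limit was sog, which encodes the BMP antagonist Short gastrulation, at 30152 bp with 2 peaks of up to 124. Nearest to the 500 bp limit from inside was a peak of dlg1 at 505 bp, with a signal of 129, and from outside one in CG42324 at 490 bp, with 83.3.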

How the data were processed

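Peak lists on dm6 were deposited by the authors, 8 in all, from both replicates together or from 1 replicate, each with a control, per the text deposited beside the samples. Neither aligner nor peak caller is named in the sources used here. Each peak has a deposited signal on a scale that is not stated, and the ranked lists have the −log10 of the global IDR from the authors. Sonicated fragments were 200 to 800 bp, per the labels. The 8 columns of signal per library in the ranked lists were not used.

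Peaks of the optimal list on the arms were classed by summit against Ensembl release 115 genes on Release 6, in the order promoter, exon, intron, intergenic. The 74 peaks on unplaced contigs were left out. Where genes overlapped, the longest named the host (22 peaks had more than 1). Replicate values are those of the strongest peak overlapping by 1 bp or more in a replicate's thresholded list, else in its ranked list. In all, 13 peaks had no value in replicate 1 and 2 none in replicate 2. Shares were compared by two-sided Fisher's exact tests and sequence by two-sided exact McNemar tests, with Benjamini-Hochberg adjustment. Named were the 20 strongest peaks in both replicate lists, the 10 genes with the most peaks, up to 4 genes a list, the 6 leading 6-mers, motifs past the test and genes next to 30 kb. Of 696 listed symbols 20 were not matched. A named host of the signalling list is not reported here. The members, lists and tests were chosen with earlier results of these data known, and the direction and spacing of ACAGTG, the 6-mers set against promoters the 6-mers lower at summits and the count of overlapping peaks as 1 in a host gene after their values were seen. The classing and tests were tested on simulated data. Tools were scipy 1.17.1 and numpy 2.4.6 in Python 3.11.15, with pandas 2.3.3 for tables and matplotlib 3.10.9 for plots. No sequence of chromosome arm 2R is shown. The labels do not say whether the replicates came from separate collections beyond calling them biological.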

Additional observations from a re-analysis of the deposited data

How the results depend on the processing

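Of 176 recomputed values 128 kept their call, stayed within their interval or, for counts, stayed near the main count, and none reversed a call. A difference that missed the threshold in both settings counted as kept even where its sign changed. That of ACAGTG from shorter introns was -0.849 points in the main setting and 4.66 with the strongest peak of each gene. A count near the main one can cover other 6-mers. With windows of 50 bp to either side 24 6-mers were called at summits, 12 of them among the 35 of the report. With 200 bp to either side 25 were called, 14 of them among the 35. No paired analysis was possible because there was only 1 group. In each replicate's own list (lowest and highest of the 2), long-gene intron peaks made up 14.2 to 16.3% of arm peaks and their density was 0.346 to 0.451 times that of shorter introns. The difference in peaks above the median signal from shorter introns was -11.7 to -3.77 percentage points. The 6-mers called were 6 to 23, and against promoters 3 to 14. ACAGTG was 3.73 to 4.18-fold over its flank. Shares of long genes with a peak were 22.4 to 27.3% over all genes, 34.6 to 36.5% for transcription factors, 16.9 to 19.5% for guidance and adhesion, 5.71 to 8.57% for channels, 46.7 to 66.7% for signalling and 28.6 to 35.7% for the cytoskeleton.

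With the conservative list the difference in signal was -5.64 points, 23 6-mers were called against promoters, and 34.2% of long genes held a peak. At an IDR of 0.001 or less, these peaks were 13.5% of arm peaks, the density ratio to shorter introns was 0.352, 8 6-mers and 1 motif were called, 3 6-mers against promoters, and ACAGTG pointed toward the summit in 87.9%. Shares of genes were then 17.8% over all, 30.8% for transcription factors, 13.0% for guidance, 5.71% for channels, 50% for signalling, 25% for the cytoskeleton and 28.6% for RNA-binding proteins.

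With the strongest peak of each gene, the differences from shorter introns were -3.74 points for signal and -4.76 for IDR. That in signal from intergenic peaks was 10.5 points and passed (adjusted Fisher's exact p = 0.0283), and 12 and 10 6-mers were called. The right flank gave 64 6-mers. A window of 50 bp to either side gave ACAGTG 2.23-fold, and 6 6-mers against promoters, where 200 bp to either side gave 202. These peaks were 15.8% of arm peaks at over 1000 bp from a TSS, 23.4% with hosts of 20 kb or more, and 10.6% with 50 kb. With 20 kb the density ratios were 0.516 to shorter introns and 1.49 to intergenic sequence, against 0.45 and 1.29 in the report, and with 50 kb the latter was 1.07. First introns of any transcript held 51.3%. The cause of these changes was not tested.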
